A study of Mus musculus with 24 samples.

Results

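The constitutive androstane receptor CAR (gene Nr1i3) and the pregnane X receptor PXR (gene Nr1i2) were followed together with cytochrome P450 reductase (Por) and 6 P450 genes of the Cyp2b and Cyp3a families (Cyp2b9, Cyp2b10, Cyp2b13, Cyp3a11, Cyp3a13 and Cyp3a25) in mouse liver. Members were all array probes whose gene name in the scanner files was 1 of these 9 symbols, which gave 12 of 55681 gene probes and 9 of 23859 named genes. RNA came from livers of males of 3 inbred strains (WSB/EiJ, C3H/HeJ and A/J), on 24 single-colour arrays with 4 per strain and diet. From 8 weeks of age the deficient groups ate an iron-supplemented amino acid diet with 0.17% methionine and neither choline nor folic acid, and the control groups ate that diet, iron included, supplemented with choline bitartrate (0.3%), folic acid (2 mg/kg) and methionine (0.4%). Livers were taken after 12 weeks on diet, at 20 weeks of age. The study set out to compare diet-induced liver injury among strains. The labels name no CAR or PXR ligand given to any group.

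CAR and PXR are nuclear receptors that sense foreign chemicals, bile acids and steroids, and both bind DNA as heterodimers with the retinoid X receptor RXR-alpha. CAR is held in the cytoplasm of hepatocytes until an inducer such as phenobarbital releases it to the nucleus, while PXR is switched on by direct ligand binding. Cyp2b10 is the classical CAR target and Cyp3a11 the classical PXR target of mouse liver, each receptor reaches part of the other's targets, and every microsomal P450 needs electrons from Por.

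The 3 Cyp2b genes are neighbours on chromosome 7. The stretches of DNA just before their start sites are printed here because the direction of their called changes differed between strains below. Each line gives 250 bases before the RefSeq gene start in build GRCm38.p6 (reference genome of C57BL/6J, none of the strains studied), 5′ to 3′ on the gene's strand, with nuclear receptor hexamers in capitals. The hexamers searched were AGTTCA and AGGTCA, on both strands; no 2 matches in a window overlap.
Cyp2b9, chr7:26173159-26173408, plus strand: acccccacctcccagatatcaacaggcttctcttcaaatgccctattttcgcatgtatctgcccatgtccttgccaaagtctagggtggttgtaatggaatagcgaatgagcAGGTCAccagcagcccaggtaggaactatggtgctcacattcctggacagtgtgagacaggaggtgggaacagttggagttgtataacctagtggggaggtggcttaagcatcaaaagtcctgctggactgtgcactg
Cyp2b13, chr7:26061245-26061494, plus strand: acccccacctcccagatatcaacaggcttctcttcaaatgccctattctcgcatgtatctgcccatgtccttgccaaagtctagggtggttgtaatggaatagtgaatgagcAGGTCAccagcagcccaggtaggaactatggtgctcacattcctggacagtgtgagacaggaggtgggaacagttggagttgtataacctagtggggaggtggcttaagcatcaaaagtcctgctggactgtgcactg
Cyp2b10, chr7:25897408-25897657, plus strand: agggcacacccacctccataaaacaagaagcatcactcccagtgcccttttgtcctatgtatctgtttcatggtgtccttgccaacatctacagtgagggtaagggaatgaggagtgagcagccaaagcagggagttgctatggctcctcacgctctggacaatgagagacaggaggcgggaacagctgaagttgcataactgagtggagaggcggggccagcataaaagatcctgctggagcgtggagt

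The Cyp2b9 and Cyp2b13 windows were identical at 99.2% of 250 positions and differed by T48C and C104T (base of Cyp2b9, position from 1 at the 5′ end of the window, base of Cyp2b13). Both held AGGTCA with its first base 138 bases before the start. The Cyp2b10 window matched each of them at 70.0% of the 260 alignment columns and held neither hexamer. The phenobarbital-responsive module through which CAR acts on Cyp2b10 lies farther upstream than these windows reach. The windows of Cyp3a11 and Cyp3a25 held 2 hexamers each, and those of Nr1i2, Nr1i3, Por and Cyp3a13 held 0. Of 32851 RefSeq windows of the same length, 24.2% held at least 1 hexamer, 11.8% AGTTCA and 14% AGGTCA, so these matches describe letters only.

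All 10 hepatocyte markers were above background on every array. The share of gene spots well above background was 44.4% to 56.0% per array, 0 were saturated, and 15551 genes were tested. Levels are log2 signals relative to the array's 75th percentile, so 0 is that percentile and each unit is a doubling, and levels of different genes cannot be compared because probes differ in brightness. Changes are log2 fold changes ± their limma standard errors (n = 4 per group), and a change was called at a Benjamini-Hochberg adjusted p of at most 0.05 over all genes. Separate animals are not stated for the arrays in the labels, and p-values then reflect spread between arrays, which may be technical. Arrays numbered 4 of A/J stood apart: over 6536 genes that changed in the same direction in both other strains, signed so that up means the deficient pattern, A/J deficient arrays 1 to 4 averaged 0.27, 0.087, 0.33 and -0.12 and A/J control arrays -0.31, -0.25, -0.40 and -0.086, so the A/J diet changes of the 9 genes were also taken without both. Without them Nr1i3 changed by -0.28 ± 0.28, Nr1i2 by -0.14 ± 0.24, Por by 0.04 ± 0.30, Cyp2b9 by 0.11 ± 0.64, Cyp2b13 by 1.28 ± 0.86 and Cyp3a13 by -0.43 ± 0.22, none called. C3H/HeJ deficient array 4 averaged 0.037 on that measure, against 0.34 to 0.70 on the other 3. Por, Cyp3a11, Cyp3a13 and Cyp3a25 are among those 6536 genes. Their A/J changes without the arrays numbered 4 are thus not independent of the choice of arrays and add no support.

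The scale itself moved with diet. The 75th percentile of the processed signal ran from 334 to 386 on WSB/EiJ deficient arrays, against 165 to 185 on WSB/EiJ control arrays. It ran from 238 to 360 on C3H/HeJ deficient and 158 to 226 on C3H/HeJ control arrays, and from 205 to 299 on A/J deficient and 203 to 235 on A/J control arrays. Scaling on the E1A spike-in probes instead shifted the median change of all genes to 0.67 in WSB/EiJ, against -0.33 on the 75th percentile, to 0.32 in C3H/HeJ, against -0.16, and to 0.29 in A/J, against -0.06. Changes of members below are therefore relative to the bulk of genes, and calls of the 9 genes' diet effects that depend on the scale are named beside each gene. On the spike-in scale most called genes were higher in every strain. Counts on that scale below are to be read against that. Whether total liver RNA per cell differed was not tested.

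On the deficient diet, CAR, Cyp2b10 and Cyp2b9 fell in WSB/EiJ livers, whereas Cyp2b9 and Cyp2b13 rose in C3H/HeJ livers and no Cyp2b gene passed the test in A/J livers. Cyp3a11 and Cyp3a25 fell in all 3 strains, though the calls of Cyp3a11 in WSB/EiJ and A/J depended on the scale. In WSB/EiJ 8 of 9 genes were called, all lower, where 73.6% of all genes were called, 50% lower and 23.7% higher. In C3H/HeJ 2 genes were called higher and 4 lower, where 48.0% of all genes were called, 17.3% higher and 30.7% lower. In A/J 2 were called, both lower, where 10.4% of all genes were called, 5.69% higher and 4.70% lower. The counts are descriptions to be read against those shares. The median change of the 9 genes was -1.42 in WSB/EiJ, -0.44 in C3H/HeJ and 0.06 in A/J, against -0.33, -0.16 and -0.06 over all genes.

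**Figure D1:**
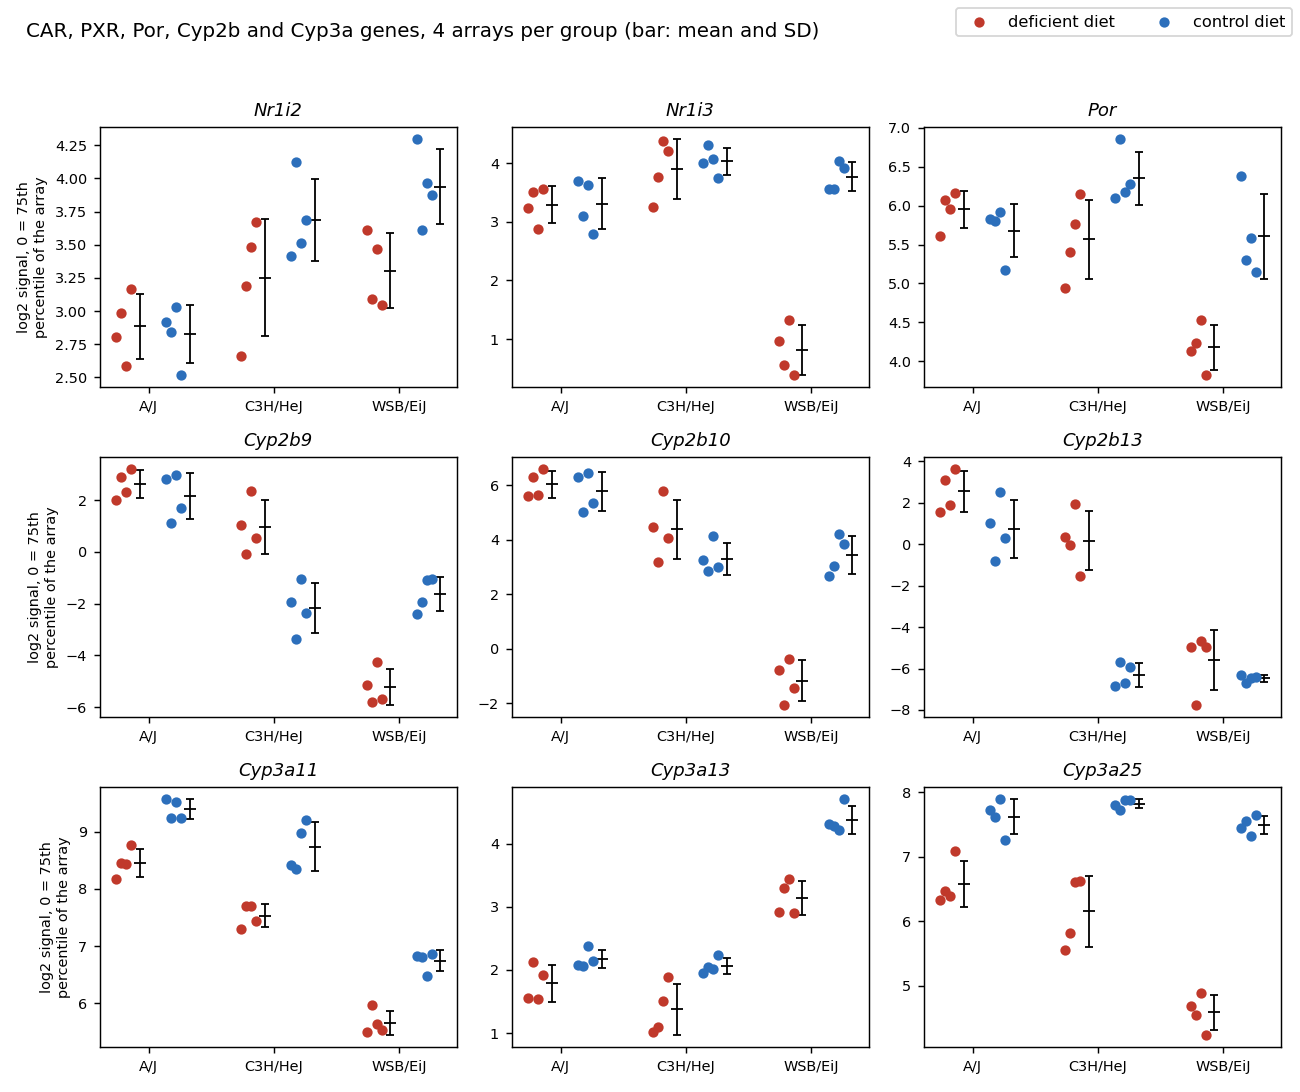
Level of each of the 9 genes on every array (vertical axis, log2 signal with 0 at the array's 75th percentile), by strain, deficient arrays left of control arrays, with the mean and SD of 4 arrays. Nr1i3 and Cyp2b10 on WSB/EiJ deficient arrays lie apart from all other arrays, and Cyp2b13 is low on C3H/HeJ control and both kinds of WSB/EiJ arrays.

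CAR fell 7.78-fold in WSB/EiJ livers on the deficient diet. Nr1i3 stood at 0.97, 0.56, 1.33 and 0.38 on the deficient arrays, against 3.55, 3.57, 4.03 and 3.92 on the control arrays. The groups did not overlap, and the lowest control array was over 2 units above the highest deficient one. The change was -2.96 ± 0.25 (adjusted p = 5.33e-09), the 150th lowest of 15551. It kept its call under every alternative run, with -1.95 on the spike-in scale as the smallest. A further Nr1i3 probe gave -2.73 ± 0.30 in WSB/EiJ (adjusted p = 1.6e-07).

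These 2 probes are printed because the CAR result rests on them. Positions (build NCBI37, mm9) and letters come from the array files; no part is capitalised, because none was singled out.
Nr1i3 probe used, chr1:173148765-173148824, plus strand: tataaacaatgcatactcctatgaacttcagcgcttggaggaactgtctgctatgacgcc
Nr1i3 further probe, chr1:173147776-173147835, plus strand: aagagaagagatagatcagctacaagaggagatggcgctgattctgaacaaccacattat

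In the other strains CAR did not pass the test. Nr1i3 averaged 3.90 ± 0.51 on C3H/HeJ deficient and 4.03 ± 0.23 on C3H/HeJ control arrays (SD, n = 4 each), a change of -0.13 ± 0.25 (adjusted p = 0.696). It averaged 3.30 ± 0.32 on A/J deficient and 3.31 ± 0.44 on A/J control arrays, a change of -0.01 ± 0.25 (adjusted p = 0.981). The diet effect in WSB/EiJ minus that in A/J was -2.95 ± 0.36 (adjusted p = 5.13e-06), and minus that in C3H/HeJ -2.83 ± 0.36 (adjusted p = 2.05e-05). CAR RNA on the deficient diet was thus 5.61-fold lower in WSB/EiJ than in A/J and 8.54-fold lower than in C3H/HeJ (adjusted p = 8.34e-08 and 4.83e-09).

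PXR changed by less than 1 unit in every strain. Nr1i2 stood at 3.61, 3.09, 3.47 and 3.04 on WSB/EiJ deficient arrays, against 4.30, 3.61, 3.96 and 3.88 on WSB/EiJ control arrays. The groups met at 3.61, and the change of -0.63 ± 0.21 was called (adjusted p = 0.0101). The call was lost with median centring (-0.47), quantile normalization (-0.18) and normexp correction (-0.16), and the sign turned on the spike-in scale (0.37, adjusted p = 0.0659). Nr1i2 changed by -0.44 ± 0.21 in C3H/HeJ (adjusted p = 0.0902; -0.58 and called, adjusted p = 0.029, without C3H/HeJ deficient array 4) and by 0.06 ± 0.21 in A/J (adjusted p = 0.883). None of the 3 differences between its diet effects passed.

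Por, the flavoprotein that passes electrons from NADPH to P450 enzymes, fell in WSB/EiJ. It stood at 4.13, 4.24, 4.53 and 3.82 on deficient arrays, against 6.38, 5.30, 5.59 and 5.15 on control arrays. All deficient arrays lay below all control arrays, and the change was -1.42 ± 0.27 (adjusted p = 8.14e-05), reduced to -0.42 (adjusted p = 0.0952) on the spike-in scale. In C3H/HeJ Por stood at 4.95, 5.41, 5.77 and 6.14 on deficient arrays and at 6.10, 6.85, 6.17 and 6.28 on control arrays, where the groups overlapped at 1 deficient array. That change of -0.79 ± 0.27 was called (adjusted p = 0.0207) but was lost without C3H/HeJ deficient array 1 (-0.58) or 2 (-0.73), without C3H/HeJ control array 2 (-0.62), and with quantile, normexp or spike-in scaling (-0.48, -0.55 and -0.31). In A/J Por changed by 0.27 ± 0.27 (adjusted p = 0.542), and 0.63 on the spike-in scale, where it was called (adjusted p = 0.0446). The diet effect in WSB/EiJ minus that in A/J was -1.70 ± 0.38 (adjusted p = 0.00125).

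**Figure D2:**
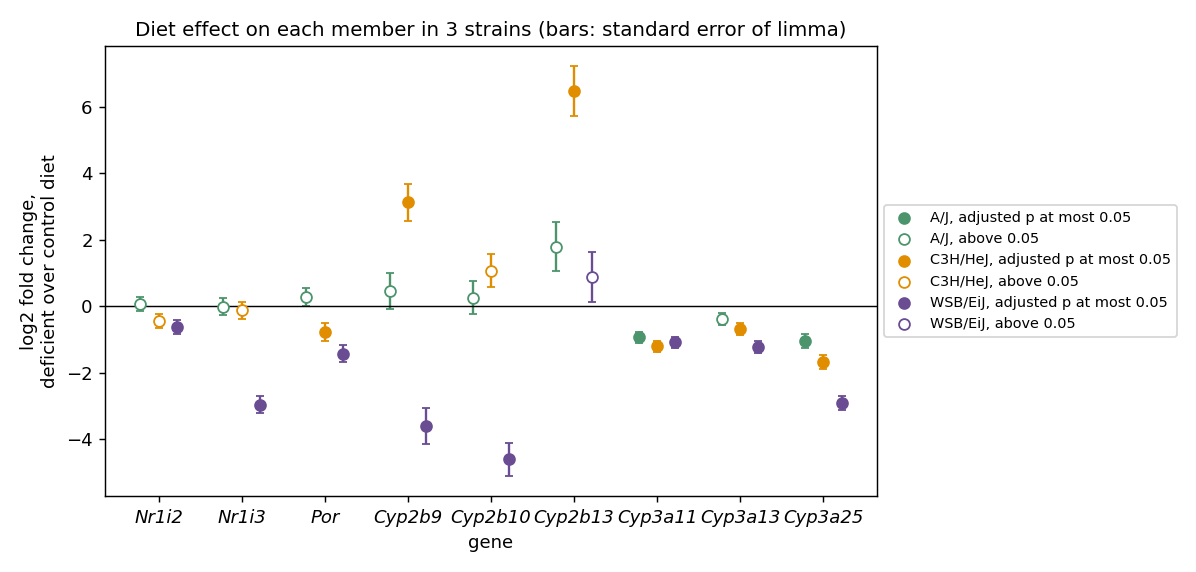
Log2 fold change, deficient over control diet (vertical axis), of the 9 genes in 3 strains with the standard error of limma; filled points passed an adjusted p of 0.05. The fitted values of the Cyp2b genes span from -4.60 for Cyp2b10 in WSB/EiJ to 6.47 for Cyp2b13 in C3H/HeJ, whose control arrays were not well above background, whereas Cyp3a11 lies between -1.21 and -0.94 in every strain.

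Cyp2b10, the P450 that phenobarbital induces through CAR, had the largest called fall among the 9 genes in WSB/EiJ. It stood at -0.80, -2.07, -0.38 and -1.44 on deficient arrays, against 2.66, 3.04, 4.19 and 3.82 on control arrays. The gap between the groups exceeded 3 units, and the change was -4.60 ± 0.50 or 24.3-fold (adjusted p = 9.87e-08), the 32nd lowest of 15551. In C3H/HeJ the deficient arrays stood at 4.47, 3.19, 5.79 and 4.06 and the control arrays at 3.25, 2.85, 4.15 and 2.98. These overlapped, and the change of 1.07 ± 0.50 did not pass (adjusted p = 0.0791), although it passed at 1.55 with spike-in scaling, 1.28 with quantile normalization, 1.27 with normexp correction, 1.08 under a fixed slide block, and 1.35 and 1.47 without C3H/HeJ control array 3 or deficient array 2. In A/J the deficient arrays lay between 5.59 and 6.59 and the control arrays between 5.01 and 6.45, with a change of 0.25 ± 0.50 (adjusted p = 0.774) that was -0.08 without both arrays numbered 4.

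Cyp2b9, a P450 known as female-predominant in mouse liver, fell in WSB/EiJ and rose in C3H/HeJ. In WSB/EiJ it stood at -5.15, -5.79, -4.25 and -5.67 on deficient arrays, against -2.41, -1.94, -1.08 and -1.06 on control arrays. The groups did not overlap, and the change was -3.59 ± 0.55 (adjusted p = 7.27e-06), but only 1 of the 4 deficient arrays was well above background and normexp correction reduced the change to -0.996 (adjusted p = 0.0249). In C3H/HeJ the deficient arrays stood at 1.03, -0.10, 2.34 and 0.53, against -1.92, -3.35, -1.04 and -2.37 on control arrays. All deficient arrays lay above all control arrays, a rise of 3.12 ± 0.55 or 8.70-fold (adjusted p = 1.7e-04). Cyp2b9 changed by 0.46 ± 0.55 in A/J (adjusted p = 0.623).

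The probe of Cyp2b9 is printed because its paralogs are close in sequence, and the array files list 1 RefSeq transcript for it; hybridisation to the other Cyp2b transcripts was not tested.
Cyp2b9 probe, chr7:26983484-26983543 (mm9), plus strand: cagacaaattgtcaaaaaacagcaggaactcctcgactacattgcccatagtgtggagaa

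Cyp2b13, a further female-predominant P450 whose upstream window is nearly that of Cyp2b9, rose in C3H/HeJ. It stood at 0.34, -0.05, 1.94 and -1.54 on C3H/HeJ deficient arrays, against -6.85, -5.69, -6.71 and -5.93 on C3H/HeJ control arrays, none of which was well above background. On group means it was therefore at least 20.9-fold higher on the deficient diet (fitted change 6.47 ± 0.74, adjusted p = 2.0e-06). This bound sets each control array at its own value or, if higher, at the dimmest probe still well above background on it. It makes no allowance for the spread between arrays, and normexp correction gave a change smaller than this bound. In WSB/EiJ Cyp2b13 was not well above background on any control array and was so on 2 of 4 deficient arrays, so no fold is given (adjusted p = 0.29, but 0.0442 with quantile and 0.0326 with spike-in scaling). In A/J the deficient arrays stood at 1.54, 3.102, 1.90 and 3.62 and the control arrays at 1.01, -0.81, 2.51 and 0.28, which overlapped, with a change of 1.79 ± 0.74 (adjusted p = 0.127) that passed with normexp correction (1.63) and on the spike-in scale (2.15).

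The diet effects of the Cyp2b genes were tested against each other between strains. For Cyp2b10 the effect in WSB/EiJ minus that in A/J was -4.86 ± 0.70, and minus that in C3H/HeJ -5.68 ± 0.70 (adjusted p = 2.62e-05 and 1.47e-05). For Cyp2b9 the same differences were -4.05 ± 0.77 and -6.71 ± 0.77 (adjusted p = 3.55e-04 and 7.43e-06). Both rest on WSB/EiJ deficient arrays of which 1 of 4 was well above background, and with normexp correction they were -1.49 and -3.10, still called. The effect in C3H/HeJ minus that in A/J was 2.66 ± 0.77 and did not pass (adjusted p = 0.0604). It passed with slide as a fixed block (3.04, adjusted p = 0.00372), with slide as a random block (2.79, adjusted p = 0.0268) and with the replicate block (2.66, adjusted p = 0.0224), as it did with a trended prior and when any of A/J control array 2, C3H/HeJ control array 3 or C3H/HeJ deficient array 2 or 4 was left out. For Cyp2b13 the differences C3H/HeJ minus A/J and WSB/EiJ minus C3H/HeJ passed (adjusted p = 0.0153 and 8.42e-04), but no control array of C3H/HeJ or WSB/EiJ was well above background, so no size is given. With normexp correction the call of C3H/HeJ minus A/J was lost (adjusted p = 0.466). Over the 9 genes, 6 differences were called for WSB/EiJ minus A/J, all lower, where 50.4% of all genes were called (33.7% lower, 16.6% higher). For WSB/EiJ minus C3H/HeJ 5 were called, all lower, where 25.9% were (16.7% lower, 9.18% higher). For C3H/HeJ minus A/J 1 was called, higher, where 3.56% were (2.09% higher, 1.47% lower).

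**Figure D3:**
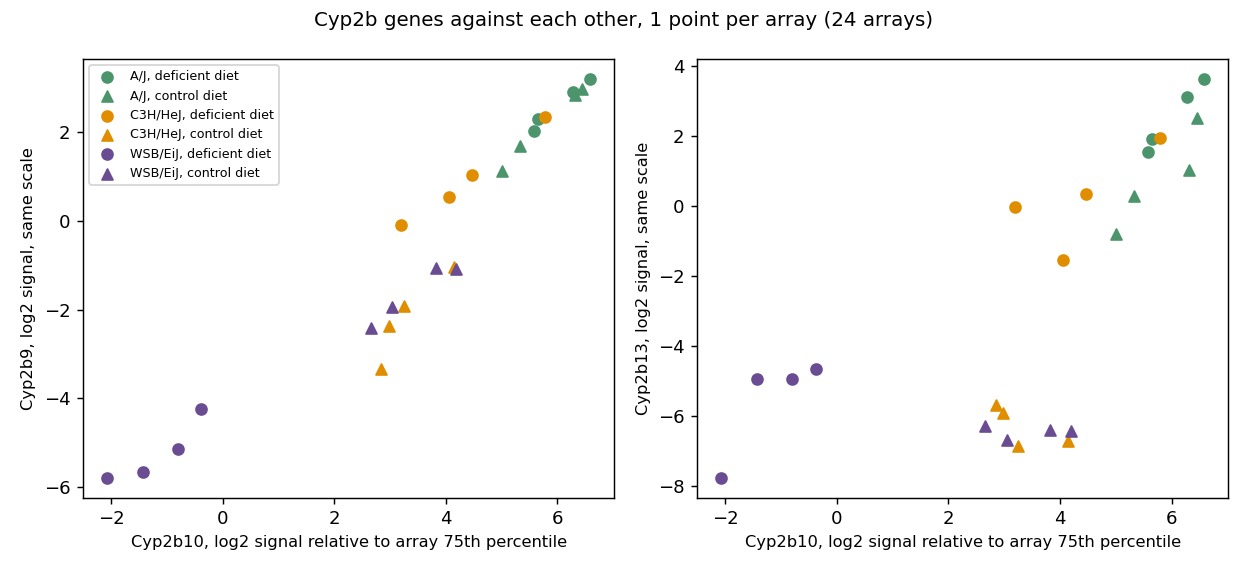
Cyp2b9 (left) and Cyp2b13 (right) against Cyp2b10, all as log2 signal relative to the array's 75th percentile, 1 point per array. Cyp2b9 and Cyp2b10 lie along 1 band over all groups, whereas Cyp2b13 on C3H/HeJ control and WSB/EiJ control arrays lies near -6 at Cyp2b10 levels of 2.66 to 4.19.

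Within groups the Cyp2b genes also varied together. Deviations from the group means of Cyp2b9 and Cyp2b10 had a Pearson r of 0.948 over 24 arrays, which share scaling and labelling. The r was 0.640 for Cyp2b10 and Cyp2b13 and 0.544 for Cyp2b9 and Cyp2b13. Nr1i3 had its highest r with Cyp3a25 (0.752) and Nr1i2 (0.744), then with Cyp2b10 (0.638), Cyp2b9 (0.555), Por (0.553), Cyp3a13 (0.552), Cyp2b13 (0.419) and Cyp3a11 (0.088). Deviations of Nr1i2 had an r of 0.840 with those of Por. These are descriptions, with no test.

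Cyp3a11, the main PXR-induced P450 of mouse liver, fell in every strain. On WSB/EiJ deficient arrays it stood at 5.50, 5.97, 5.64 and 5.53, against 6.82, 6.81, 6.48 and 6.87 on control arrays. On C3H/HeJ deficient arrays it stood at 7.29, 7.70, 7.70 and 7.43, against 8.42, 8.35, 8.98 and 9.21 on control arrays. On A/J deficient arrays it stood at 8.17, 8.45, 8.43 and 8.77, against 9.57, 9.25, 9.52 and 9.23 on control arrays. In no strain did the groups overlap, and the changes were -1.09 ± 0.18 in WSB/EiJ, -1.21 ± 0.18 in C3H/HeJ and -0.94 ± 0.18 in A/J (adjusted p = 1.56e-05, 2.84e-05 and 0.00206). The strain differences in diet effect lay between -0.27 and 0.12 and did not pass, each with a standard error of 0.25. In WSB/EiJ the call rested on the scale: it was lost with quantile normalization (-0.32, adjusted p = 0.113), normexp correction (-0.36) and spike-in scaling (-0.08), and in A/J it was lost with spike-in scaling alone among these (-0.58, adjusted p = 0.0533). Without both A/J arrays numbered 4 the A/J change was -1.10 ± 0.20 (adjusted p = 0.00144).

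Cyp3a25, a liver P450 of the same cluster on chromosome 5, fell in all 3 strains. It stood at 4.68, 4.55, 4.88 and 4.24 on WSB/EiJ deficient arrays, against 7.45, 7.56, 7.32 and 7.65 on control arrays. It stood at 5.56, 5.82, 6.60 and 6.63 on C3H/HeJ deficient arrays, against 7.80, 7.72, 7.88 and 7.88 on control arrays. In A/J it stood at 6.33, 6.48, 6.38 and 7.10 on deficient arrays, against 7.73, 7.61, 7.89 and 7.26 on control arrays. Deficient arrays lay below control arrays in every strain, and the changes were -2.91 ± 0.21 in WSB/EiJ, -1.67 ± 0.21 in C3H/HeJ and -1.05 ± 0.21 in A/J (adjusted p = 7.6e-10, 7.6e-06 and 0.00378). The effect in WSB/EiJ minus that in C3H/HeJ was -1.24 ± 0.30, and minus that in A/J -1.86 ± 0.30 (adjusted p = 0.0062 and 8.96e-05), while that in C3H/HeJ minus A/J was -0.62 ± 0.30 (adjusted p = 0.256). Without both A/J arrays numbered 4 the A/J change was -1.35 ± 0.22 (adjusted p = 6.56e-04), and on the spike-in scale the 3 changes were -1.90, -1.19 and -0.69.

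Cyp3a13, a P450 of liver and gut, fell in WSB/EiJ and C3H/HeJ. It stood at 2.91, 3.29, 3.43 and 2.91 on WSB/EiJ deficient arrays, against 4.31, 4.27, 4.21 and 4.71 on control arrays, a change of -1.24 ± 0.18 (adjusted p = 4.11e-06). It stood at 1.01, 1.09, 1.51 and 1.89 on C3H/HeJ deficient arrays, against 1.95, 2.05, 2.01 and 2.23 on control arrays, a change of -0.69 ± 0.18 (adjusted p = 0.00429). Neither pair of groups overlapped, but both calls were lost on the spike-in scale (-0.23 and -0.21). A further Cyp3a13 probe gave -1.67 ± 0.20 in WSB/EiJ and -0.38 ± 0.20 in C3H/HeJ, the second not called (adjusted p = 0.122). In A/J the change was -0.38 ± 0.18 (adjusted p = 0.181), and the effect in WSB/EiJ minus that in A/J was -0.86 ± 0.25 (adjusted p = 0.00894), a call lost with quantile (-0.44), normexp (-0.45) and spike-in scaling (-0.21).

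The other Cyp3a genes on the arrays followed the same direction in most cases. Of 8 other Cyp2b and Cyp3a genes listed, Cyp2b19 and Cyp2b23 were above background on no array, Cyp3a41a had no probe of its own, and 5 were tested. Cyp3a16, Cyp3a41b, Cyp3a57 and Cyp3a59 were called lower in all 3 strains, 4 of 5 in each. Over all genes 50%, 30.7% and 4.70% were called lower in WSB/EiJ, C3H/HeJ and A/J. Cyp3a57 changed by -3.01 ± 0.23 in WSB/EiJ, -1.91 ± 0.23 in C3H/HeJ and -1.18 ± 0.23 in A/J, and Cyp3a41b by -0.86 ± 0.19, -1.46 ± 0.19 and -1.38 ± 0.19 in the same order of strains. Cyp3a16 changed by -1.15, -1.23 and -1.26, each with an error of 0.28. On the spike-in scale Cyp3a57 and Cyp3a59 kept their calls in every strain, whereas Cyp3a16 was called in A/J alone and Cyp3a41b turned to 0.15 in WSB/EiJ, where it was not called. The female-predominant Cyp3a44 changed by 0.46, 0.54 and 1.62 (standard error 0.71 each) and passed in none.

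Probes of this family did not always act alike. Cyp3a59 changed by -2.27 ± 0.15 in WSB/EiJ at the probe used, but by 4.48 ± 0.22 (adjusted p = 6.8e-12) at a dimmer further probe. The level of that further probe on control arrays differed by -5.96 in WSB/EiJ over A/J. That probe was well above background on 20 arrays but not on all, so its rise in WSB/EiJ may start below background. The size of that rise is therefore uncertain. In C3H/HeJ and A/J both Cyp3a59 probes were lower on the deficient diet (-1.67 and -2.03 in C3H/HeJ, -1.20 and -1.45 in A/J). The second Cyp3a11 probe is listed for 4 RefSeq transcripts, those of Cyp3a11, Cyp3a41a, Cyp3a41b and Cyp3a44, and gave -1.04 in WSB/EiJ, -1.49 in C3H/HeJ and -1.17 in A/J. Each Cyp3a59 probe is listed for 1 RefSeq transcript, and why they differed in WSB/EiJ was not tested. Values of single Cyp3a genes are uncertain where probes disagree or are listed for several transcripts. Whether bases under a probe differ between strains was not tested.

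**Figure D4:**
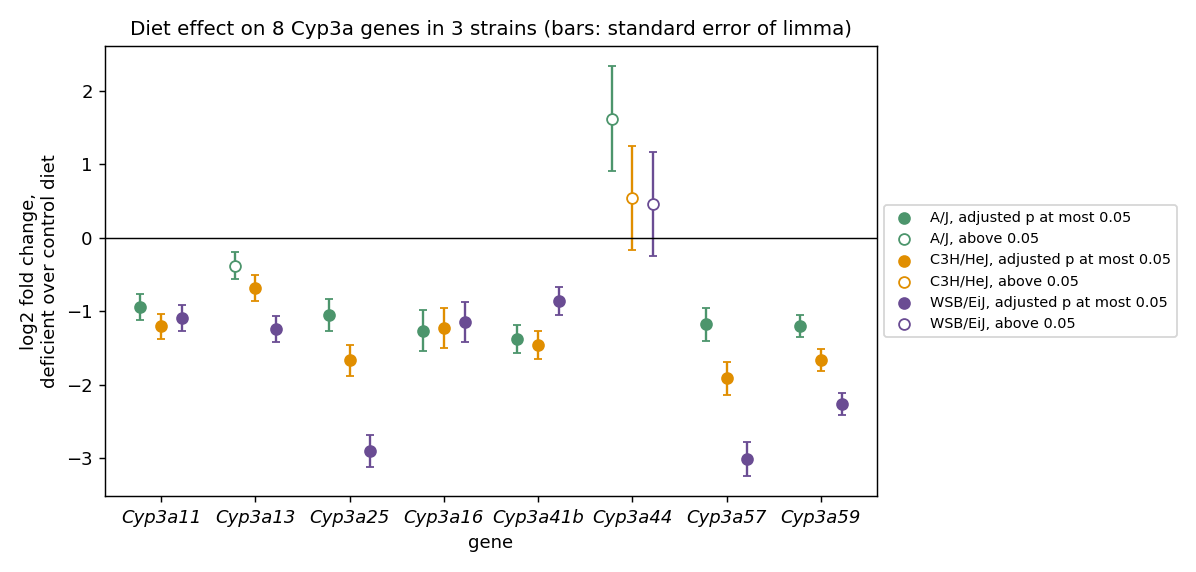
Log2 fold change, deficient over control diet (vertical axis), of 8 Cyp3a genes in 3 strains with the standard error of limma; filled points passed an adjusted p of 0.05. Cyp3a25, Cyp3a57 and Cyp3a59 fell most in WSB/EiJ, while Cyp3a11, Cyp3a16 and Cyp3a41b lie between -1.46 and -0.86.

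The strains already differed on the control diet, A/J from the other two in all 3 Cyp2b genes. WSB/EiJ over A/J called 2 of 9 genes higher and 4 lower, where 45.1% of all genes were called (26.4% higher, 18.7% lower). C3H/HeJ over A/J called 2 higher and 4 lower, where 24.6% were called (14% higher, 10.5% lower). WSB/EiJ over C3H/HeJ called 1 higher and 2 lower, where 40.5% were called (21.7% higher, 18.9% lower). Cyp2b10 was 5.08-fold lower in WSB/EiJ than in A/J and 5.54-fold lower in C3H/HeJ than in A/J (-2.34 ± 0.50 and -2.47 ± 0.50; adjusted p = 6.13e-04 and 8.87e-04). Cyp2b9 differed by -3.77 ± 0.55 in WSB/EiJ and by -4.32 ± 0.55 in C3H/HeJ, each over A/J (adjusted p = 1.06e-05 and 5.12e-06). By the same bound on group means, Cyp2b13 was at least 30.9-fold higher in A/J than in WSB/EiJ and at least 31.1-fold higher in A/J than in C3H/HeJ. WSB/EiJ and C3H/HeJ did not pass in any Cyp2b gene, with differences of 0.55 ± 0.55 for Cyp2b9 and 0.12 ± 0.50 for Cyp2b10.

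Cyp3a11 and Cyp3a13 ran in opposite directions between strains on the control diet. Cyp3a11 was 6.27-fold lower in WSB/EiJ than in A/J (-2.65 ± 0.18) and 3.98-fold lower than in C3H/HeJ (-1.99 ± 0.18), and C3H/HeJ over A/J gave -0.65 ± 0.18 (adjusted p = 1.99e-10, 1.31e-08 and 0.00922). Cyp3a13 was 4.62-fold higher in WSB/EiJ than in A/J and 4.97-fold higher than in C3H/HeJ (adjusted p = 4.02e-09 and 1.85e-09). No array of one strain overlapped those of the other in these 5 differences. The further Cyp3a13 probe gave a larger gap between WSB/EiJ and A/J (3.33 ± 0.20), and the shared Cyp3a11 probe a smaller one (-2.01 ± 0.19). Cyp3a25 did not pass between any strains on the control diet on the 75th percentile scale, with means of 7.49 ± 0.14 in WSB/EiJ, 7.82 ± 0.07 in C3H/HeJ and 7.62 ± 0.27 in A/J. With quantile, normexp and spike-in scaling it was called lower in WSB/EiJ than in C3H/HeJ (-0.59, -0.59 and -0.57) and than in A/J (-0.49, -0.45 and -0.43), and a fit of the compared groups alone also called it lower than in C3H/HeJ (-0.33, adjusted p = 0.0248).

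PXR RNA was lowest in A/J on the control diet. Nr1i2 averaged 3.94 ± 0.28 in WSB/EiJ, 3.69 ± 0.31 in C3H/HeJ and 2.83 ± 0.22 in A/J, and both strains were higher than A/J, by 1.11 ± 0.21 and 0.86 ± 0.21 (adjusted p = 1.93e-04 and 0.00431), while they did not pass against each other. Nr1i3 averaged 3.77 ± 0.25 in WSB/EiJ, 4.03 ± 0.23 in C3H/HeJ and 3.31 ± 0.44 in A/J. Only C3H/HeJ over A/J was called for it (0.72 ± 0.25, adjusted p = 0.0425), and that call was lost when any of 5 single control arrays was left out (0.55 to 0.74). Por in WSB/EiJ over C3H/HeJ gave -0.75 ± 0.27 (adjusted p = 0.0301), a call lost with median centring (-0.68) and when any of 4 single control arrays was left out (-0.74 to -0.58). On the same diet Cyp2b9, Cyp2b10 and Cyp2b13 were highest in A/J.

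On the deficient diet WSB/EiJ over A/J called 1 of 9 genes higher and 7 lower, where 60.5% of all genes were called (23.5% higher, 37.0% lower). WSB/EiJ over C3H/HeJ also called 1 higher and 7 lower, where 52.1% were called (21.2% higher, 30.9% lower). C3H/HeJ over A/J called 4, all lower, where 21.7% were called. Cyp2b10 was 147-fold lower in WSB/EiJ than in A/J and 46.9-fold lower than in C3H/HeJ (adjusted p = 2.7e-10 and 1.62e-08). Cyp3a13 was higher in WSB/EiJ, by 1.35 ± 0.18 over A/J and 1.76 ± 0.18 over C3H/HeJ (adjusted p = 2.71e-06 and 1.07e-07). Nr1i2 in WSB/EiJ over A/J gave 0.42 ± 0.21 (adjusted p = 0.0885) and was called higher under the other 4 scalings, at 0.61 to 0.76. Nr1i3 in C3H/HeJ over A/J gave 0.61 ± 0.25 and was called with quantile and normexp scaling (0.65 and 0.63). Cyp2b9, Cyp2b10 and Cyp2b13 were still lower in C3H/HeJ than in A/J (-1.66 ± 0.55, -1.65 ± 0.50 and -2.37 ± 0.74; adjusted p = 0.0342, 0.0201 and 0.0257), each with overlapping arrays. Those 3 calls were lost when A/J deficient array 2 or 4 or C3H/HeJ deficient array 2 was left out, those of Cyp2b9 and Cyp2b13 also without C3H/HeJ deficient array 4, and that of Cyp2b9 also without C3H/HeJ deficient array 1 and with spike-in scaling (-1.60, adjusted p = 0.0523).

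Of 30 tested targets of the 2 receptors outside the 9 genes, 21 fell and 4 rose in WSB/EiJ, 13 fell and 3 rose in C3H/HeJ, and 11 fell and 1 rose in A/J, where 50%, 30.7% and 4.70% of all genes fell and 23.7%, 17.3% and 5.69% rose, with median changes of -0.89, -0.32 and -0.33. With spike-in scaling the same genes gave 11, 6 and 7 lower and 10, 9 and 3 higher, with medians of 0.11, 0.16 and 0.03. The medians of all genes on that scale, given above, were higher in every strain. In WSB/EiJ the lowest adjusted p were those of the arachidonate and drug oxidases Cyp2c54, Cyp2c50 and Cyp2c37, which changed by -7.81 ± 0.38, -7.74 ± 0.40 and -7.44 ± 0.42. In C3H/HeJ the drug efflux pump Abcb1a rose by 2.80 ± 0.27, and the carboxylesterase Ces2a and the oxidase Cyp2c29 changed by -2.65 ± 0.29 and -2.06 ± 0.24. In A/J Cyp2c55, Cyp2c29 and Ces2a changed by -2.87 ± 0.32, -1.48 ± 0.24 and -1.79 ± 0.29. Alas1, the rate-limiting enzyme of haem synthesis, passed in no strain (-0.24, -0.44 and 0.67, standard error 0.39 each).

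The direction of the receptors' partners depended on the scale. Of 18 heterodimer partners, coregulators and retention proteins, 16 fell in WSB/EiJ, 5 in C3H/HeJ and 0 in A/J, and 0 rose in any strain (limma; the counts were the same at an unadjusted p under 0.05). Over all genes 50%, 30.7% and 4.70% fell in those strains and 23.7%, 17.3% and 5.69% rose. With quantile normalization 7 fell and 2 rose in WSB/EiJ, and with spike-in scaling 2 fell and 9 rose. Rxra, the obligate partner of both receptors, changed by -0.63 ± 0.19 in WSB/EiJ (adjusted p = 0.00493), -0.31 ± 0.19 in C3H/HeJ (adjusted p = 0.177) and -0.04 ± 0.19 in A/J (adjusted p = 0.919). Hnf4a, a hepatocyte nuclear receptor that helps to drive CAR and PXR transcription, changed by -1.32 ± 0.16, -0.46 ± 0.16 and -0.29 ± 0.16 (adjusted p = 3.21e-07, 0.0192 and 0.238). The corepressor Nr0b2 and the chaperone Hsp90ab1 changed in WSB/EiJ by -2.22 ± 0.30 and -0.94 ± 0.12. In C3H/HeJ the further RXR isoform Rxrb and the cochaperone Dnajc7, which holds CAR in the cytoplasm, changed by -0.51 ± 0.11 and -0.27 ± 0.09.

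Of 11 genes of microsomal electron transfer and haem supply, 10 fell and 1 rose in WSB/EiJ, 3 fell and 1 rose in C3H/HeJ, and 1 fell and 1 rose in A/J. Over all genes 50%, 30.7% and 4.70% fell in those strains and 23.7%, 17.3% and 5.69% rose. With spike-in scaling the counts of the 11 genes were 4 lower and 1 higher in WSB/EiJ, and 0 lower and 4 higher in both C3H/HeJ and A/J. Pgrmc1, a haem protein that binds P450 enzymes, fell in all 3 strains (-1.48, -0.65 and -0.57, standard error 0.12 each). The haem-degrading Hmox1 rose by 1.85 ± 0.15 in WSB/EiJ and 0.47 ± 0.15 in A/J. Urod, an enzyme of haem synthesis, changed by -0.95 ± 0.11 in WSB/EiJ and -0.42 ± 0.11 in C3H/HeJ, and Fech, which inserts the iron, by -0.59 ± 0.14 in C3H/HeJ.

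Cyp2b9, Cyp2b13 and several Cyp3a genes are known to differ between the sexes in mouse liver, so sex-biased genes were set beside them. Over all genes 50%, 30.7% and 4.70% fell in WSB/EiJ, C3H/HeJ and A/J, and 23.7%, 17.3% and 5.69% rose. Of 13 tested male-biased genes, 11 fell in WSB/EiJ, 12 in C3H/HeJ and 3 in A/J, and 0 rose (at an unadjusted p under 0.05, 12, 12 and 9 fell and 0 rose). With spike-in scaling 9, 7 and 2 fell and 0 rose. The steroid dehydrogenase Hsd3b5 changed by -5.97 ± 0.41, -2.36 ± 0.41 and -1.51 ± 0.41 in those strains, and the glucuronosyltransferase Ugt2b38 by -2.47 ± 0.14, -1.06 ± 0.14 and -0.48 ± 0.14. The elongase Elovl3 changed by -7.50 ± 0.55 in WSB/EiJ and -2.70 ± 0.55 in A/J. The organic anion transporter Slco1a1 changed by -1.54 ± 0.25 in C3H/HeJ. Of 8 tested female-biased genes, 4 rose and 2 fell in WSB/EiJ, 3 rose in C3H/HeJ and 1 rose in A/J (at an unadjusted p under 0.05, 5 rose in WSB/EiJ and 2 in A/J). With spike-in scaling 5 rose and 1 fell in WSB/EiJ, and 3 and 2 rose in C3H/HeJ and A/J. Above background on all control arrays were 4 in WSB/EiJ, 6 in C3H/HeJ and 8 in A/J, so some rises may start below background. Their summed level ran from 4.44 to 4.86 on WSB/EiJ deficient and from 7.25 to 7.90 on WSB/EiJ control arrays, and overlapped between diets in the other strains. The oxysterol hydroxylase Cyp39a1 rose by 4.14 ± 0.36 in WSB/EiJ and 1.62 ± 0.36 in A/J, and Cyp2a4 changed by -3.43 ± 0.28 in WSB/EiJ. In C3H/HeJ Acot3, Prom1 and Hao2 rose by 2.49 ± 0.52, 1.83 ± 0.41 and 2.37 ± 0.53. These lists rest on the known sex bias of the genes in other mice, and no female liver was measured here.

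Markers of liver cell types moved with the diet. Their counts stand against all genes, of which 50%, 30.7% and 4.70% fell in WSB/EiJ, C3H/HeJ and A/J, and 23.7%, 17.3% and 5.69% rose. Of 10 hepatocyte markers, 10 fell in WSB/EiJ, 8 in C3H/HeJ and 1 in A/J (medians -1.14, -0.61 and -0.36), but 3, 2 and 1 with spike-in scaling. Their summed level ran from 11.75 to 12.08 on WSB/EiJ deficient and from 12.89 to 12.99 on WSB/EiJ control arrays, from 11.90 to 12.62 on C3H/HeJ deficient and 12.58 to 13.14 on C3H/HeJ control arrays, and from 12.32 to 12.79 on A/J deficient and 12.61 to 13.01 on A/J control arrays. Of 11 macrophage and monocyte markers, 8 rose in WSB/EiJ, 8 in C3H/HeJ and 5 in A/J, with a summed level of 7.38 to 7.55 on WSB/EiJ deficient and 5.04 to 5.22 on WSB/EiJ control arrays. Of 9 stellate cell and matrix markers 7, 6 and 3 rose in the same order of strains (1 fell in A/J), and of 6 biliary markers 5, 2 and 0 (5, 3 and 0 at an unadjusted p under 0.05, where 2 fell in A/J). Of the biliary markers 5, 3 and 3 were above background on all control arrays of those strains, so some rises may start below background. Of 6 endothelial markers 1 rose and 3 fell in WSB/EiJ (5 rose and 0 fell with spike-in scaling), 2 rose in C3H/HeJ and 1 rose in A/J, and of 4 tested lymphocyte markers 3, 2 and 1 fell. In bulk liver fewer hepatocytes and less RNA per hepatocyte cannot be told apart, and the part of cell makeup in the changes of the 9 genes was not tested. The largest fall among the 10 hepatocyte markers in WSB/EiJ was -2.11 ± 0.32 for Tdo2 (named after its value was seen). The falls of Nr1i3, Cyp2b10, Cyp2b9 and Cyp3a25 there (-2.96, -4.60, -3.59 and -2.91) were larger, with Cyp2b9 well above background on 1 deficient array. The falls of Por, Cyp3a13, Cyp3a11 and Nr1i2 (-1.42, -1.24, -1.09 and -0.63) were smaller than that of Tdo2. No test was made of these differences.

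Each slide held arrays of all 6 groups, so the changes were also taken within each of the 3 slides. In WSB/EiJ Cyp2b10 changed by -4.81 to -3.43, Nr1i3 by -3.08 to -2.24, Cyp2b9 by -4.08 to -2.31, Cyp3a25 by -3.05 to -2.67 and Cyp3a11 by -1.18 to -1.07 over the slides. In C3H/HeJ Cyp2b9 changed by 2.51 to 3.80, Cyp2b13 by 5.64 to 7.12, Cyp3a25 by -2.28 to -1.26 and Cyp3a11 by -1.65 to -0.64. In A/J Cyp3a11 changed by -1.14 to -0.92 and Cyp3a25 by -1.34 to -1.10. Por in C3H/HeJ ran from -1.45 to -0.32 and Nr1i2 in WSB/EiJ from -1.23 to -0.15. Each of these kept its sign on every slide.

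Genes with the most similar profiles over 24 arrays were ranked by Pearson r, which the gaps between strains and diets feed as much as the spread within groups. For Nr1i3 they were the triglyceride synthesis enzyme Dgat2 (0.972), Fahd2a (0.969) and Them7 (0.966). For Cyp2b10 they were Cyp2b9 (0.959), Sugct (0.943) and the transporter Slc47a1 (0.943), and for Cyp3a11 Apol7b (0.967), 4930579F01Rik (0.963) and Pnp2 (0.960). Within the 8 A/J arrays, where diet moved few genes, Cyp2b9 was again first for Cyp2b10 (0.987), and Cyp3a59 was first for Cyp3a11 (0.992). Within the 8 C3H/HeJ arrays Cyp2b9 was second for Cyp2b10 (0.878, after Cfap61 at 0.884), and Cyp3a41b was first for Cyp3a11 (0.981). Within the 8 WSB/EiJ arrays the values were near 1 for many genes: Ctsz led for Nr1i3 (0.999), Tubg1 for Cyp2b10 (0.999) and Rbm4b for Cyp3a11 (0.998).

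Nr1i3, Cyp2b9, Cyp2b10 and Cyp3a25 were called lower in WSB/EiJ under all 5 scalings. With spike-in scaling Cyp2b10 changed by -3.60, Cyp2b9 by -2.59, Nr1i3 by -1.95 and Cyp3a25 by -1.90. With quantile normalization they changed by -4.38, -3.40, -2.67 and -2.16. Of genes called in WSB/EiJ, 32.1% were higher on the 75th percentile scale, 49.6% with quantile normalization, 41.2% with median centring and 89.8% with spike-in scaling. The shares were 36.1%, 52.3%, 44.2% and 89.3% in C3H/HeJ, and 54.8%, 62.0%, 73.9% and 94.9% in A/J.

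**Figure D5:**
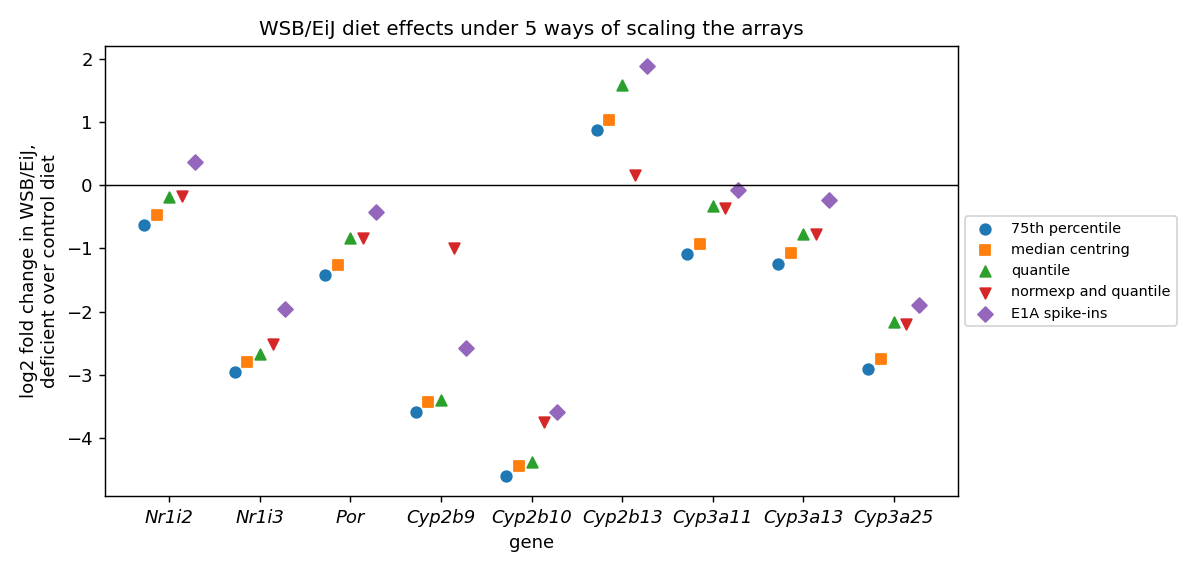
Log2 fold change in WSB/EiJ, deficient over control diet (vertical axis), of the 9 genes under 5 ways of scaling the arrays, 1 symbol for each. Nr1i3, Cyp2b10 and Cyp3a25 stay at or below -1.90 and Cyp2b9 at or below -0.996 under all 5, whereas Nr1i2 crosses 0 on the spike-in scale and Cyp3a11 reaches -0.08.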

How the data were processed

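Liver RNA of 24 samples was labelled with Cy3 and hybridised to Agilent mouse arrays, per the labels' protocols, on 3 slides, per the file headers. Per the file headers, Agilent Feature Extraction 10.7 gave each spot a background-subtracted intensity, and the authors deposited it with no scaling between arrays. Spot flags of 0 or 1 (above background, saturated, outlying) come from the same deposited files. A deposited table of the authors' normalized intensity differed from that signal by a constant factor within each array.

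Outlier-flagged spots (3332) were left out, replicate spots averaged, and log2 signals scaled on the array's 75th percentile. Of 55681 gene probes, 26762 were named through a RefSeq accession, 3819 through a symbol, 639 through a synonym and 1711 by the name in the file, and 22750 had no name and were left out. Tested probes were well above background in at least 1 whole group of 4 arrays, and a gene was its brightest probe. limma 3.58.1 in R 4.3.3 fitted 6 group means over 24 arrays, with 2-sided moderated tests and Benjamini-Hochberg adjustment over 15551 genes at 0.05. Tested on simulated data for the A/J diet effect over 15551 genes, the fit recovered 46% of genes changed 1.5-fold, 70% at 2-fold, 94% at 4-fold and 100% at 8-fold (50 each). The simulated noise was independent between genes, and all changed genes were raised. They were a smaller share than the 10.4% called in the A/J data, so recovery there may differ. The number of arrays limits the precision.

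Members, lists and comparisons were chosen with earlier results of these data known. All 9 members and all tested Cyp2b and Cyp3a genes are named. Other lists are given by counts and by up to 3 genes with the lowest adjusted p per strain, with Rxra, Hnf4a and Alas1 always. Likeness is Pearson r, the 3 highest over 24 arrays. Alternatives covered scaling, background, filters, probes, blocks, priors, weights, thresholds and each array left out; leaving out both A/J arrays numbered 4 was added after seeing the data. No genome came with the files, so probes were not realigned.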

Additional observations from a re-analysis of the deposited data

Results flagged for a closer look

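Of 54 sets of 4 arrays (9 genes in 6 groups), 3 held an array far from the other 3 by Dixon's criterion. Por on A/J control array 4 stood at 5.17, with the others at 5.80 to 5.92. Cyp2b13 on WSB/EiJ deficient array 2 stood at -7.77, with the others at -4.95 to -4.67. Without it the fitted diet change passed (adjusted p = 0.0461), but no WSB/EiJ control array was well above background for Cyp2b13, so no size is given. Cyp3a11 on WSB/EiJ control array 3 stood at 6.48, with the others at 6.81 to 6.87. The criterion is set so that chance alone flags sets of this kind at a 5% rate.

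Of 27 differences between the strains' diet effects, 12 passed the test in limma. WSB/EiJ minus A/J gave Cyp2b10 -4.86, Cyp2b9 -4.05, Nr1i3 -2.95, Cyp3a25 -1.86, Por -1.70 and Cyp3a13 -0.86 (not called with quantile, normexp or spike-in scaling). WSB/EiJ minus C3H/HeJ gave Cyp2b9 -6.71, Cyp2b10 -5.68, Cyp2b13 -5.59, Nr1i3 -2.83 and Cyp3a25 -1.24. C3H/HeJ minus A/J gave Cyp2b13 4.68. The Cyp2b13 differences and those of Cyp2b9 with WSB/EiJ are fitted values over groups with arrays not well above background, so their sizes are uncertain.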

How the results depend on the processing

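Called values kept their call in 1545 of 1624 recomputations, lost it in 78 and turned sign in 1. The setting above background on all arrays left out Cyp2b9 and Cyp2b13, which were well above background on 21 and 14 arrays. All 46 called values still tested under it kept their call. Counts under that setting thus fell because these genes were not tested, not because calls were lost. Counts of called genes moved as follows. C3H/HeJ over A/J on the control diet called 3 with a log2 change of at least 1, and on the deficient diet 2 above background on all arrays and 1 each at an adjusted p of 0.01, with only the compared groups, and without both A/J arrays numbered 4 (1 to 4 with 1 array left out). The diet effect difference C3H/HeJ minus A/J called 0 above background on all arrays, at 0.01 and with normexp correction, and 2 with slide as a fixed or random block, a trended prior, or the replicate block (1 to 3 with 1 array left out) (limma; at an unadjusted p under 0.05 the counts of 0 became 2, 3 and 3). WSB/EiJ minus C3H/HeJ called 3 above background on all arrays. The A/J diet effect called 1 at a log2 change of at least 1, and that in WSB/EiJ 5 with spike-in scaling, Cyp2b13 higher among them.

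Sign turned in Nr1i2, WSB/EiJ (0.37) and C3H/HeJ (0.040) with spike-ins, A/J with array weights (-0.024) and without both arrays numbered 4 (-0.14), and WSB/EiJ minus C3H/HeJ with normexp (0.066), quantile (0.081) and spike-ins (0.33). It turned in Nr1i3, C3H/HeJ with normexp (0.017), quantile (0.070) and spike-ins (0.35), A/J with the deposited table (0.0012), mean of probes (0.099), median centring (0.058), normexp (0.046), quantile (0.057) and spike-ins (0.35), and C3H/HeJ minus A/J with quantile (0.013), spike-ins (6.6e-04) and without both arrays numbered 4 (0.15). It turned in Cyp2b10, A/J with the slide block (-0.014) and without both arrays numbered 4 (-0.083), and in WSB/EiJ over C3H/HeJ on the control diet with array weights (-0.34) and spike-ins (-0.12). On that comparison array weights gave Cyp2b9 -0.13 and Cyp2b13 0.096, and normexp Cyp2b13 0.0039. Cyp3a11 in WSB/EiJ minus A/J gave 0.25 with normexp, 0.30 with quantile, 0.50 with spike-ins and 0.0087 without both arrays numbered 4, and Por in WSB/EiJ over A/J on the control diet 0.035 with median centring.

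With 1 array left out, Nr1i2 in A/J ran from -0.045 to 0.16, Nr1i2 in WSB/EiJ over C3H/HeJ on the deficient diet ran from -0.14 to 0.19, Nr1i3 in A/J ran from -0.19 to 0.13, Nr1i3 in C3H/HeJ ran from -0.29 to 0.090, Nr1i3 in C3H/HeJ minus A/J ran from -0.28 to 0.10. Likewise, Cyp2b10 in A/J ran from -0.0023 to 0.48, Cyp2b10 in WSB/EiJ over C3H/HeJ on the control diet ran from -0.13 to 0.41, Cyp2b13 there ran from -0.35 to 0.037, Cyp3a11 in WSB/EiJ minus C3H/HeJ ran from -0.037 to 0.25 and Por in WSB/EiJ over A/J on the control diet ran from -0.34 to 0.075. None of these was called with all arrays.

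Same-numbered arrays did not deviate together (correlations -0.348 to 0.066 over 12 pairs), so replicate numbers share only a number; besides the 2 calls above, the replicate block gave 7 called genes in C3H/HeJ, 8 in WSB/EiJ and 2 in A/J. Dim probes limit Cyp2b9 and Cyp2b13: normexp correction reduced the Cyp2b13 change in C3H/HeJ to 2.63 and that of Cyp2b9 to 2.11.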
